A study of Mus musculus with 16 samples.

Results

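Bglap3, a gene of the osteocalcin family, was followed through the 4 groups of a whole colon RNA-seq experiment on loss of the chromatin remodeller Smarcad1. It was taken as the gene whose symbol equals Bglap3 in any of the 4 deposited tables, which makes 1 of 5171 genes listed there. It was chosen by its means in these 4 groups, so those means are described here without a test. All mice were C57BL/6 and received an enriched microbiota by transfer of bedding and shared ventilation with donor females. Wild type mice (WT) were compared with mice in which a floxed part of Smarcad1 was deleted by Vil-Cre, a recombinase expressed from the villin promoter in the intestinal epithelium (KO), so that other cells of the colon keep the gene. Each genotype was studied untreated (control, 3 libraries each) and after 15 days of 1% dextran sulphate sodium (DSS) in the drinking water, which damages the colon lining (colitis, 5 libraries each). The mice were males by the study's methods, with cohorts of like age whose age is not given in the sources used here, and the design text of the series speaks of the small intestine where the sample labels name the colon.

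Osteocalcin is a small secreted protein of bone. Osteoblasts, the cells that build bone, are its usual source. Its glutamate residues are carboxylated with the help of vitamin K into Gla residues, which bind calcium, and a less carboxylated form circulates as a hormone. The mouse carries a cluster of genes of this kind, of which Bglap and Bglap2 are the osteoblast genes and Bglap3, also called osteocalcin-related protein, is a close relative.

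The 3 genes lie side by side on the minus strand of chromosome 3 (GRCm38). Bglap3 covers positions 88368616 to 88372743, Bglap2 positions 88377736 to 88378699 and Bglap positions 88383501 to 88384464. Each codes for an open reading frame of 285 bases over 4 coding exons. The coding sequences are printed first because they show how little separates the gene that was measured from its relatives. They come from GENCODE M21 transcripts, exons joined, and run 5′ to 3′ between chr3:88368759-88369536 (Bglap3), chr3:88377873-88378650 (Bglap2) and chr3:88383638-88384415 (Bglap). Capitals mark the bases at which a gene differs from both of the others.
Bglap3: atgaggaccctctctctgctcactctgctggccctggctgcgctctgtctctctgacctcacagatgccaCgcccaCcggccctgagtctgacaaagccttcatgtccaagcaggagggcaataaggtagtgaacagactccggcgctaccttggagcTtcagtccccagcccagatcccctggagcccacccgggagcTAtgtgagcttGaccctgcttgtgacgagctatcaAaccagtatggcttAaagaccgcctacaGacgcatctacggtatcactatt
Bglap2: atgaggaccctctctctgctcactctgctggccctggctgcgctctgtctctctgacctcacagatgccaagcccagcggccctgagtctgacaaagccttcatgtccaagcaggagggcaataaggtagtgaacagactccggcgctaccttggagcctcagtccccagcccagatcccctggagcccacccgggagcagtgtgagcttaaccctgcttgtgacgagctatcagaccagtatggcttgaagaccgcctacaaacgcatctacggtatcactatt
Bglap: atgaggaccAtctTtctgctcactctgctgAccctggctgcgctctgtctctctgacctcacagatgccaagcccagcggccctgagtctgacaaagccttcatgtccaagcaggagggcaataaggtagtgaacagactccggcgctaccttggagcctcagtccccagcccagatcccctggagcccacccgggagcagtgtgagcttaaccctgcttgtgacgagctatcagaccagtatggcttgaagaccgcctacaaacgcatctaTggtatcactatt
Bglap3 shared 276 of 285 bases with Bglap2 (96.8%) and 272 with Bglap (95.4%), while Bglap2 and Bglap shared 281 (98.6%). All 9 bases that set Bglap3 apart from both lie in the second and the fourth coding exon. The third coding exon, 58 bases long, was the same in all 3 genes.

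The transcripts of Bglap3 differ from those of its relatives outside the coding part. GENCODE lists 5 transcripts, 3 of them coding. Bglap3-203 (7 exons, 1047 bases) and Bglap3-202 (6 exons, 2051 bases) begin at the distal start, position 88372743, and Bglap3-201 (4 exons, 717 bases) at a proximal start, position 88369831. The first 3 exons of Bglap3-203 hold no coding base, and no ungapped stretch of 100 bases from them resembled Bglap2 or Bglap. All 372 of its 100-base windows with at most 10 mismatches to Bglap2 began between bases 571 and 942, in the part from the fourth exon on, and the same 372 windows were found against Bglap. The median over its 948 windows was 60 mismatches against Bglap2.

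**Figure D1:**
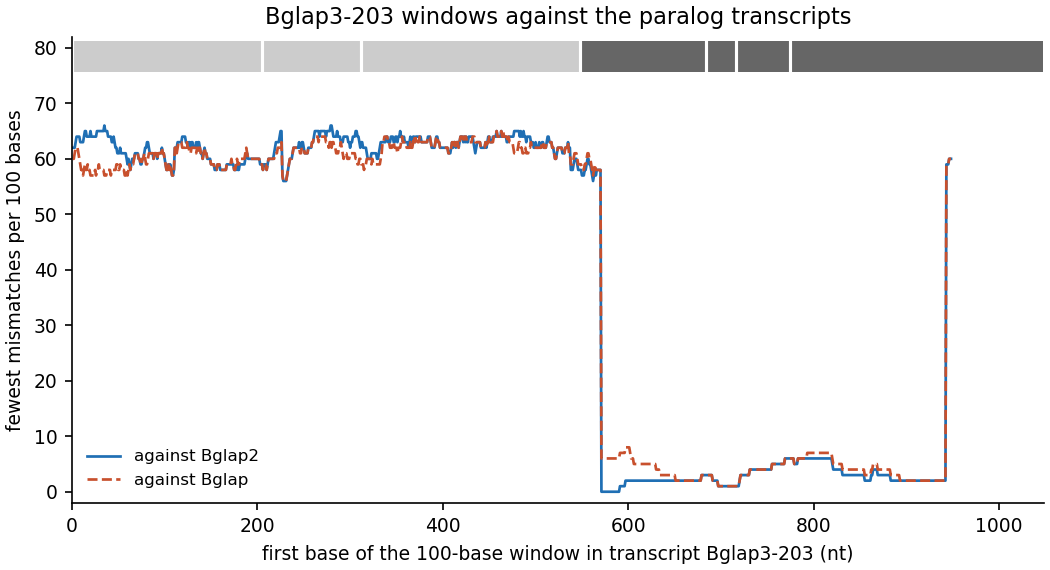
Fewest mismatches of each 100-base window of transcript Bglap3-203 against any window of the Bglap2 (solid) and Bglap (dashed) transcripts, without gaps. The bar at the top shows the 7 exons, those with coding bases in dark grey. Windows from base 571 to 942 hold 10 mismatches or fewer against both genes, and the others lie far above.

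This bears on the counts because the authors kept uniquely mapped reads of 100 bases, and a mate, if the reads were paired, was not considered. Of 2820 different 100-base windows of the Bglap3 transcripts, 29 (1.03%) also occurred without a mismatch in a transcript of another gene, in each case Bglap2 or Bglap. With up to 2 mismatches allowed the share was 14.8% over all transcripts. For the coding transcripts alone it was 33.2% (Bglap3-201), 18.75% (Bglap3-202) and 21.6% (Bglap3-203). At up to 2 mismatches the other genes were Bglap2, Bglap, A330049N07Rik and E330020D12Rik. Among the coding transcripts, A330049N07Rik and E330020D12Rik shared windows with Bglap3-202 only, so its share is not all with the paralogs. Neither Bglap nor Bglap2 is listed in any of the 4 tables, so their own values were not analysed here, and whether some reads crossed between the genes was not tested. Position 88368541, the end of Paqr6 on the opposite strand, lies 74 bases from the end of Bglap3, so the annotated genes do not overlap.

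RefSeq gives 3 start windows for Bglap3 on this build, each of 250 bases before and 50 bases after a start. The distal window (start 88372741) and the proximal window (start 88369831) held the same block. Over 200 aligned bases without a gap, 184 were identical (92%). With the first exons added, the stretch came to 273 bases with 253 identical. The parts of this block that lie before both starts are shown because the gene is counted over all exons together, which does not separate the starts. Capitals mark the 14 bases that differ, on the minus strand, 5′ to 3′, at chr3:88372842-88372991 for the distal and chr3:88369832-88369981 for the proximal start.
Distal start: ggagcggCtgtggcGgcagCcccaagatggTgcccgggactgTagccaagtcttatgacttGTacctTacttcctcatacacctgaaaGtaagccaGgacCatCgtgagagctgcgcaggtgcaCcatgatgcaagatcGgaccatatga
Proximal start: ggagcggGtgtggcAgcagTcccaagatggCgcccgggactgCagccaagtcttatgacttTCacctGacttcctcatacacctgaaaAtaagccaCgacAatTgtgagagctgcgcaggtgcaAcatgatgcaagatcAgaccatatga
The printed stretch ends 101 bases before the distal start and directly before the proximal one. The last 50 bases before the distal start, at chr3:88372742-88372791, held a TATA-like run, in capitals below.
Distal start, last 50 bases: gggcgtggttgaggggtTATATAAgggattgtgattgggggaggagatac
The letters TATATAA began 33 bases before the start, and their reverse reading, which overlaps them, 34 bases before it. On either strand TATATAA was found in 3.24% of 32851 start windows of all genes, and in neither of the other 2 windows of Bglap3. CCAAT, found in 37.4% of all start windows, occurred in all 3 windows of Bglap3 and in that of Bglap. The letters AACCACA, which Runx factors bind, and TGANTCA, which AP-1 factors bind, were not in these windows on either strand (5.27% and 7.81% of all start windows hold them). The motifs were chosen after the sequences were seen. The middle start window (start 88371479) and the window of Bglap shared no comparable stretch with the distal window, where the best ungapped stretches were 12 and 11 bases.

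The geometric mean library size, recovered from the lowest means, lay between 8.005 M and 10.1 M reads in the 4 groups. The values are the authors' group means of log2 RPM, that is, of reads scaled to a library of 1 M reads, without values for single mice. The study's supplement holds values by sample, which were not used here, so that no SD is given and every difference stands without a test. The intervals are 95% intervals of counting error only and leave out the spread between mice. Smarcad1 itself stood at 5.77 log2 RPM (WT) and 4.59 (KO) in control and at 5.68 and 4.55 in colitis, lower in KO in both.

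Bglap3 was read in all 4 groups and stood far higher in KO than in WT, with or without colitis. In WT control its mean was 4.40 log2 RPM (95% counting interval 4.29 to 4.51), or 21.1 RPM and about 214 reads per library. In KO control it was 8.01 log2 RPM (7.98 to 8.04), or 258 RPM and about 2519 reads. In WT colitis it was 3.73 log2 RPM (3.61 to 3.86), or 13.3 RPM and about 107 reads, the lowest of the 4. In KO colitis it was 7.54 log2 RPM (7.51 to 7.57), or 186 RPM and about 1836 reads. From the highest down the order was untreated KO, KO with colitis, untreated WT and WT with colitis, and no 2 counting intervals overlapped; whether neighbours in this order differ by more than the spread between mice was not tested. The gene was well detected also in WT, where its mean lay 6.16 (control) and 5.15 (colitis) log2 units above the level of 3 reads per library.

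**Figure D2:**
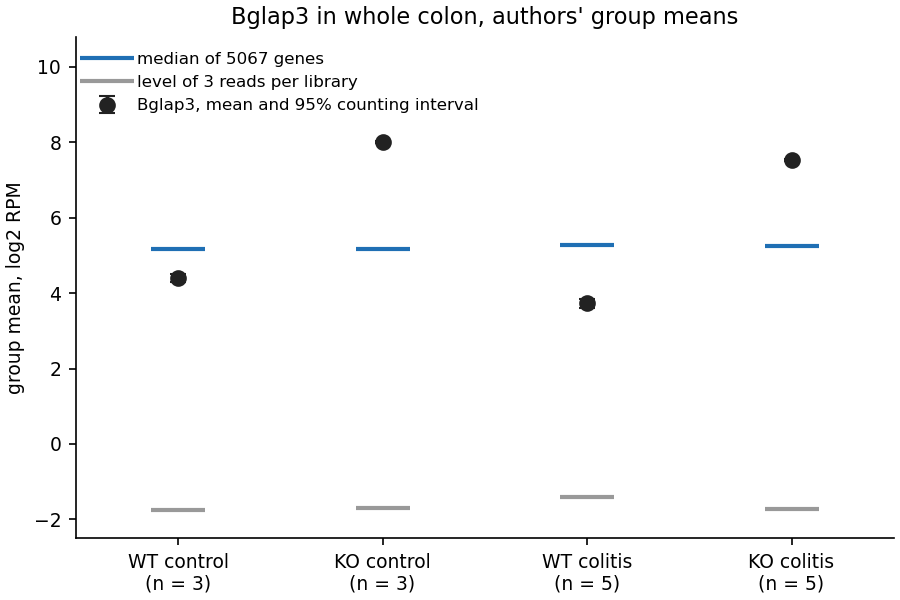
Authors' group means of Bglap3 in log2 RPM (points) with 95% counting intervals, for 3 control and 5 colitis libraries per genotype, beside the median of 5067 listed genes and the level of 3 reads per library. Bglap3 lies below the median in both WT groups and above it in both KO groups.

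The KO minus WT difference was 3.61 log2 units in control (counting interval 3.49 to 3.73), a 12.2-fold higher level. In colitis it was 3.81 log2 units (3.68 to 3.93), or 14.0-fold. In RPM the KO level exceeded the WT level by 237 in control and by 173 in colitis. In RNA from whole tissue, more cells with the transcript and more transcript per cell cannot be told apart.

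With colitis the Bglap3 mean was lower in both genotypes. The colitis minus control difference was −0.67 log2 units in WT (−0.83 to −0.50) and −0.47 in KO (−0.51 to −0.43). The medians over all 5067 genes with a mean of at least 0 log2 RPM in some group were 0.13 and 0.19, so Bglap3 lay on the other side of 0 from the median of the listed genes, most of which were listed for this very comparison. Its difference in KO was −0.80 when centred on 47 ribosomal protein genes. The listed markers of colon cell types differed between colitis and control too, but each is listed only for that comparison. That they changed with colitis was thus set by the listing. Markers that are not listed are left out of the sums, and the part of these cells in the Bglap3 values was not tested. Of 8 colon epithelium markers 3 were listed (Car1, a carbonic anhydrase, Slc26a3, a chloride exchanger, and Aqp8, a water channel), and their summed level in control was 7311 RPM (WT) and 6945 RPM (KO), against 3452 and 3396 RPM in colitis. The 2 of 4 smooth muscle markers listed (Acta2 and Myh11) summed to 3619 RPM (WT) and 3358 RPM (KO) in control and to 2345 and 2316 RPM in colitis. The 3 of 4 immune markers listed (Ptprc, Cd3e and Itgam) summed to 71.1 and 71.6 RPM in control and to 186 and 181 RPM in colitis, WT before KO. All of these listed markers lay above 3 reads per library in every group. Single markers also differed between the genotypes, in both directions. In colitis the KO minus WT difference was −0.81 log2 units for Car1 and 0.59 for both Slc26a3 and Aqp8. In control that of Cd3e, a T cell gene, was −0.78, at low means of 0.41 (WT) and −0.37 log2 RPM (KO). Whether these marker differences exceed counting error or the spread between mice was not tested.

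The KO minus WT difference of Bglap3 was larger by 0.20 log2 units in colitis than in control (counting interval 0.03 to 0.37). Centred on the ribosomal protein genes this turned to −0.053, so the data give no direction for a change of the genotype difference with colitis.

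Among the 5067 genes, Bglap3 had the fourth highest KO minus WT difference in both conditions. In control 49 of these genes (0.967%) were higher in KO by at least 1 log2 unit, in colitis 72 (1.42%), and in both conditions 16 (0.316%), Bglap3 among them by its choice. Lower by as much were 0.632% in control and 2.53% in colitis. The middle 90% of all listed genes lay between −0.40 and 0.41 in control and between −0.73 and 0.51 in colitis. The genes above Bglap3 were Khdc1a, Kirrel2 and AC151971.2 in control and AC151971.2, Kirrel2 and Treh in colitis. Khdc1a, a KH domain gene, stood at −0.54 (WT) and 5.66 log2 RPM (KO) in control, but in colitis WT was already at 5.25 and KO at 7.55. Of the genes ahead of it, none reached 0 log2 RPM in all 4 groups, and among genes with all 4 means of at least 0 Bglap3 ranked first in both conditions. The authors list Bglap3 in both tables of genotype, which hold 46 (control, 0.89%) and 56 genes (colitis, 1.08%) of the 5171. It is also in the table of colitis against control in KO, which holds 78.4% of them, and not in that of WT, which holds 63.1%; whether the response to colitis differs between the genotypes was not tested.

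**Figure D3:**
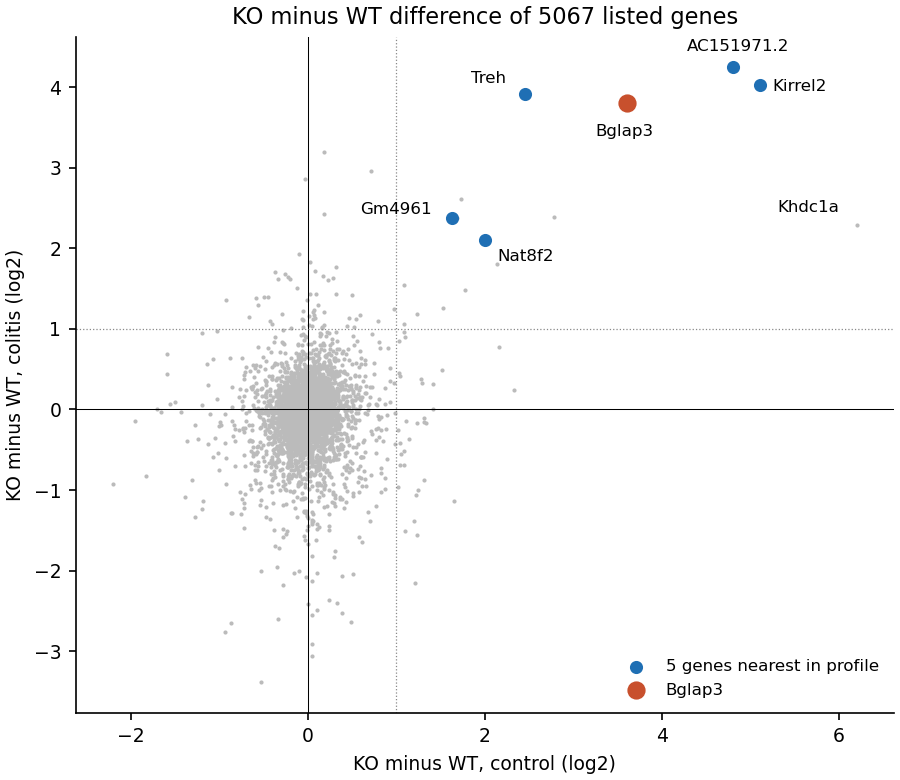
KO minus WT differences in log2 units of 5067 listed genes in control (x axis) and colitis (y axis), with means as deposited also where they fall under 3 reads. Bglap3 lies at 3.61 and 3.81, away from the cloud around 0, and the dotted lines mark a difference of 1.

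Its place among the other genes changed with genotype too. Per kilobase of merged exon (2629 bases for Bglap3), 51.1% of 4507 genes had a higher level than Bglap3 in WT control and 8.32% in KO control. In colitis the shares were 61.7% in WT and 12.7% in KO. On the log2 RPM per kilobase scale its level was 3.01 in WT control, where the median of the genes was 3.09, and 6.62 in KO control.

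The 5 genes with the profile most like that of Bglap3, by the root mean square distance of the 4 means after each gene's own mean was taken off, were Treh (0.48), Kirrel2 (0.62), AC151971.2 (0.76), Nat8f2 (0.84) and Gm4961 (0.87), where the median over 5066 genes was 1.91. They were the same 5 when means under 3 reads were raised to that level, but in another order. Kirrel2 (0.38) was then nearest, followed by AC151971.2 (0.76) and Treh (0.83). All were low in WT. Treh, Kirrel2, AC151971.2 and Nat8f2 reached 0 log2 RPM in KO only, so their low WT level goes with the filter they passed. Each of the 5 is also listed by the authors for a comparison of genotype. The distance used the means by which Bglap3 was chosen, so the likeness is a description only. Treh, the brush border enzyme that splits the sugar trehalose, had WT means of −1.92 (control) and −2.71 (colitis), both under 3 reads, and KO means of 0.53 and 1.21, at least 4.87-fold and at least 6.17-fold higher. AC151971.2 begins 994 bases from Treh on the opposite strand, and its means were −1.09 in WT control, 3.72 in KO control, −0.15 in WT colitis and 4.10 in KO colitis. Kirrel2, a cell adhesion protein of the nephrin family, was under 3 reads in WT (−3.01 and −2.43) and at 2.11 and 1.60 in KO, at least 14.5-fold and at least 8.09-fold higher. Nat8f2, of an acetyltransferase family, had means of −0.02 and 1.99 in control and −0.90 and 1.20 in colitis (WT before KO). Gm4961, a predicted gene, had means of 0.16 and 1.79 in control and −0.92 and 1.46 in colitis in the same order. Bglap3 was thus the only gene of the 6 with more than 100 reads per library in WT.

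No listed gene around Bglap3 had a difference of its size. Of 74 protein-coding genes annotated within 1 Mb, 17 are listed, the predicted gene Gm38392 among them. With a listed gene that is not annotated as protein-coding this made 18 neighbours. None had a KO minus WT difference of 1 log2 unit or more with a mean above 3 reads. Over all listed genes 0.967% were higher and 0.632% lower by that much in control, and 1.42% and 2.53% in colitis. All 18 are listed for colitis against control and for no comparison of genotype, so the count is no result about this region. In control the 17 with such a mean lay between −0.40 and 0.61 (median −0.03), and in colitis the 18 lay between −0.59 and 0.91 (median 0.07). Fcrl5, at the upper end in colitis, was under 3 reads in both control groups. Within 250 kb the listed genes were Rhbg, an ammonium transporter (−0.03 in control and 0.33 in colitis), the predicted gene Gm38392 (−0.12 and 0.21), Cct3, a subunit of the TRiC chaperonin (−0.15 and −0.05), and Lmna, which codes for nuclear lamins A and C (−0.03 and 0.002). Cct3, the nearest, ends 46848 bases from Bglap3 and was read at 7.93 to 8.27 log2 RPM in the 4 groups. Paqr6, Smg5 and Pmf1, which lie nearer, are not listed and were not analysed here.

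**Figure D4:**
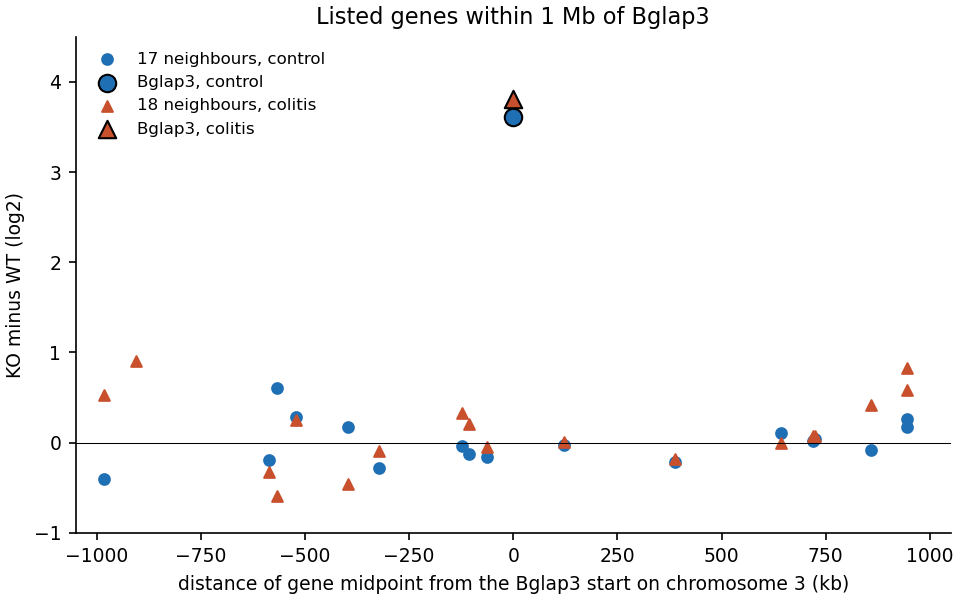
KO minus WT differences in log2 units of Bglap3 (outlined) and of its listed neighbours within 1 Mb, against the distance of the gene's midpoint from the distal Bglap3 start, for control (circles) and colitis (triangles). The neighbours lie between −0.59 and 0.91, and Bglap3 at 3.61 and 3.81; a gene under 3 reads in both groups of a condition is left out there.

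Among listed genes that make, modify or sense osteocalcin, or that go with it in bone, Bglap3 alone was higher in KO by 1 or more in both conditions. Bglap3 was chosen by these means, and only 0.316% of all listed genes were higher by that much in both. That no other member passed is thus no result about these genes. Of the 3 osteocalcin genes only Bglap3 is listed. None of the 7 genes for carboxylation and vitamin K recycling is listed, among them Ggcx, which codes for the carboxylase itself. Of 16 other genes for Gla proteins or relatives 5 are listed. None of the 4 above 3 reads in control was higher or lower in KO by 1, where 0.967% and 0.632% of all listed genes were. In colitis 1 of 5 was lower by that much, where 2.53% of all listed genes were. The medians were −0.08 in control and −0.38 in colitis, against 0.004 and −0.01 over all listed genes. All 5 are listed for colitis against control in WT and for no comparison of genotype. The WT colitis mean thus entered both the listing and the difference in colitis, so these values are no result about Gla proteins. Mgp, an inhibitor of calcification, differed by −0.38 in control and −0.49 in colitis. F10, coagulation factor X, was under 3 reads in both control groups and had means of 2.37 in WT colitis and 1.13 in KO colitis. Prrg4, a membrane Gla protein, differed by 0.07 and −0.38, and Tgfbi, a matrix protein, by −0.15 and −0.27.

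Of 10 genes for osteocalcin receptors, activation and processing 5 are listed, with medians of 0.17 in control and −0.15 in colitis. None was at 1 or more in either direction once a mean under 3 reads was set to that level. Over all listed genes 0.967% were higher and 0.632% lower by that much in control, and 1.42% and 2.53% in colitis. All 5 are listed for colitis against control in WT and for no comparison of genotype. Gprc6a, the receptor most often named for the hormone, is not listed. Gpr37, a receptor described in oligodendrocytes, had control means of 0.40 (WT) and 0.34 (KO), and in colitis was under 3 reads in WT and at −1.04 in KO. Pcsk1, a prohormone protease, differed by −0.38 in control and −0.15 in colitis. Ctsk, a bone-resorbing protease, differed by 0.30 and −0.32, and Tcirg1, a proton pump subunit, by 0.24 and −0.21.

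Of 11 osteoblast transcription factors 5 are listed. Their medians were −0.09 in control and −0.14 in colitis, and 1 was lower by at least 1 in control, where 0.632% of all listed genes were. That was Zbtb16, a zinc finger repressor, at 4.72 (WT) and 3.16 log2 RPM (KO) in control and at 2.29 and 2.36 in colitis. Runx2, the master regulator of osteoblasts, differed by −0.11 in control and −0.16 in colitis. Cebpb, a factor of inflammation as well, differed by 0.50 and −0.33, and Fosl2, an AP-1 factor, by −0.09 and −0.14.

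Of 14 matrix genes of osteoblasts and osteocytes 7 are listed, none with a difference of 1 or more. Over all listed genes 0.967% were higher and 0.632% lower by that much in control, and 1.42% and 2.53% in colitis. The median over the 6 above 3 reads in control was 0.04. In colitis 5 of 7 were lower in KO (median −0.48, against −0.01 over all listed genes). All 7 are listed for colitis against control in WT and for no comparison of genotype. The WT colitis mean thus entered both the listing and this difference, so the count is no result about matrix genes. Col1a1, the main collagen of bone and of scar, differed by 0.05 in control and −0.63 in colitis. Alpl, alkaline phosphatase, differed by 0.48 and −0.72 and Bmp2, a growth factor, by 0.25 and 0.50. Spp1, which codes for osteopontin, was under 3 reads in both control groups and at 2.25 in WT colitis against 1.40 in KO colitis. Of 10 osteoblast markers 3 are listed (Runx2, Alpl and Col1a1), at a summed 373 RPM (WT) and 387 RPM (KO) in control and 876 and 569 RPM in colitis. This sum was highest in WT colitis, the group in which Bglap3 was lowest. All 3 markers are listed only for colitis against control, so a change with colitis was set by the listing. Col1a1 made up most of the sum, at 9.73 log2 RPM in WT colitis against 4.10 for Alpl and 3.14 for Runx2. The part of these markers in the Bglap3 values was not tested.

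Of 9 genes of the vitamin D axis, which drives osteocalcin genes in human bone, Vdr alone is listed. This receptor was at 9.33 (WT) and 9.45 log2 RPM (KO) in control and at 8.73 and 8.94 in colitis. Of 10 genes for calcium transport in the gut 3 are listed, and 1 was higher in KO by at least 1 in colitis, where 1.42% of all listed genes were. That was Trpv6, the apical calcium channel, at −0.38 log2 RPM in WT colitis and 2.58 in KO colitis, a difference of 2.96, while in control it was at −0.03 and 0.68. The other two, Atp2b1 and Slc8a1, which move calcium out of the cell, differed by 0.10 and 0.06 in control and by 0.06 and −0.11 in colitis. Of 10 other genes that the study ties to loss of Smarcad1 7 are listed, and 5 of them were higher in KO by at least 1 in each condition, among them Bambi (2.15 and 1.81) and Aplp1 (1.78 and 1.49). Over all listed genes these shares were 0.967% in control and 1.42% in colitis. Tiam1 went the other way, with −0.55 in control and −1.01 in colitis. The paper names Tiam1 among its repeatedly upregulated genes, and elsewhere among genes with more H3K9me3, a histone mark, and less expression in KO. The paper drew its list from sorted intestinal cells, colon crypts and small intestinal organoids, not from these whole colon libraries. The list was taken up here with earlier results of these data known and is no independent evidence.

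**Figure D5:**
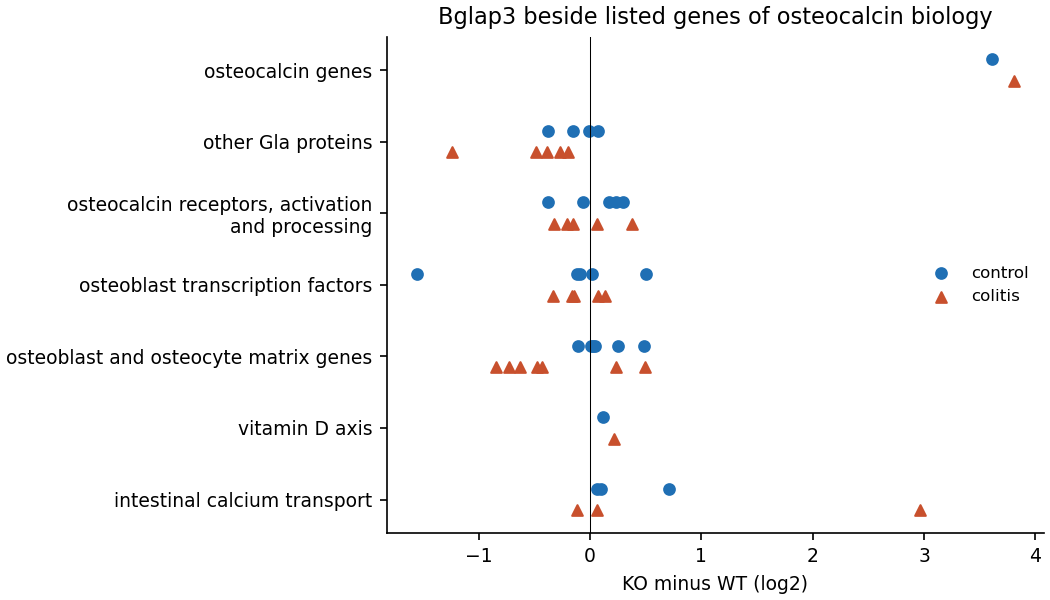
KO minus WT differences in log2 units of the listed members of 7 gene lists, in control (circles) and colitis (triangles), with Bglap3 as the only listed osteocalcin gene in the top row. Outside that row, Trpv6 in colitis at 2.96 lies farthest to the right. A mean under 3 reads is set to that level, and members under 3 reads in both groups of a condition are left out there.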

How the data were processed

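RNA from whole colon of 16 mice was made into libraries from total RNA and sequenced as 100-base reads, single-end per the labels and paired-end per the paper's methods. Per the paper's methods and the submitters' processing notes, the authors mapped reads to GRCm38 with HISAT2 2.1.0, kept unique alignments, counted reads over the exons of merged transcripts in SeqMonk, removed ribosomal RNA reads because some samples were contaminated, and ran DESeq2. Strand handling is not given in the sources used here. The 4 deposited tables hold, for the genes the authors called in 1 comparison at a threshold of 0.05, their adjusted p-value and 4 group means; the p-values were not used. The deposited means are log2 RPM per group (unit log2), computed by the authors without length correction. Rows of 1 gene in different tables held identical means. A gene that passed in none of the tables was not analysed here.

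Depth was recovered from the lowest mean of each group, read as 0 reads (set to 0.9 before the logarithm) in every library. All low means checked (99, 92, 35 and 32 in the 4 groups, up to the mean of 5 reads in 1 library) lay on the steps of whole reads within 2e-06 log2 units. The counting SE of a group mean was taken from the reads over its libraries. Means at or under 3 reads per library served as bounds in the fold values and were set to that level in the gene lists. Ranks, the main profile distances and the counts of all listed genes past a difference used the means as deposited. So did the plot of all listed genes in control against colitis. Ranks used the 5067 genes with a mean of at least 0 log2 RPM in some group. Lengths are merged exons of GENCODE M21 genes with identical coordinates. Depth recovery and profile distance were tested on simulated data. Groups came from the sample titles, and no p-value was computed. Normalized counts by sample in the study's supplement were not used. Alternatives were other centrings, a log2(RPM + 1) scale, filters, distances and window lengths.

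Bglap3, the lists and the rules were chosen with earlier results of these data known. A gene of the transcription factor list is not reported here. The genes named were Bglap3, the listed genes within 250 kb, the 5 nearest profiles, Smarcad1 and, from each list, up to 4 members with the largest KO minus WT difference in either condition; Fcrl5 and Tiam1 were named after their values were seen. Python 3.11.15 with numpy 2.4.6, pandas 2.3.3 and matplotlib 3.10.9 was used.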

Additional observations from a re-analysis of the deposited data

How the results depend on the processing

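The KO minus WT difference of Bglap3 stayed between 3.55 and 3.86 under every scaling tried, with 3.76 in control when centred on ribosomal protein genes. That centring also moved the colitis minus control difference in KO to −0.80 (−0.54 when centred on all listed genes) and turned the difference between conditions to −0.053; the median of the ribosomal protein genes was itself higher in colitis by 0.33 in KO and 0.08 in WT. The rank of Bglap3 went from 4 to 1 when genes with any mean under 0 log2 RPM were left out (both conditions), to 2 (control) and 1 (colitis) on a log2(RPM + 1) scale, and to 2 in colitis when means under 3 reads were raised to 3 reads, an alternative added after the data were seen. With a difference of at least 0.5 in place of 1, 185 genes were higher and 159 lower in KO in control, and 266 higher and 489 lower in colitis. Listed neighbours numbered 7 within 500 kb and 4 within 250 kb. Over all Bglap3 transcripts, windows shared with other genes made 11.5% at 50 bases and 14.8% at 100 bases with up to 2 mismatches. Reading the lowest mean as 1 read in 1 library, also added later, gave 2609 reads of Bglap3 per library in KO control and 1875 in KO colitis. No paired analysis was possible because the columns used are group means and carry no replicate numbers. Leaving out single libraries was not run on these means, and the values by sample in the study's supplement were not used, so a single library that decides a mean would not be seen. Genes that passed in no table are not analysed here, so ranks and shares hold among listed genes only.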

Other observations

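In all, 3 start windows of other genes shared a run of 25 identical bases with those of Bglap3, on either strand. Gm36619 shared one with the distal and the proximal window, and Gm34144 and Pard3 each shared one with the proximal window. None of the 3 is in the deposited tables. The middle start window shared no such run.

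The repeat of the distal start block in front of the proximal start is a feature of the reference sequence. The tables count reads over all exons of the gene, so the share of each start in the level of Bglap3 was not tested.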
